A study of Mus musculus with 19 samples.

Results

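The comparison described here sets 8 lines of mouse embryonic stem (ES) cells, each grown from a colony that had regained a naive-state reporter, against the undifferentiated ES cells from which the experiment began. The members were chosen by their sample titles alone: the libraries of colonies 1, 3, 4, 5, 6, 7, 9 and 10, and the 1 library of undifferentiated cells. They make up 9 of the 19 libraries of the series, which fall into 9 groups. The undifferentiated cells have no replicate, so their value is given beside the lowest, median and highest of the 8 lines throughout.

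All libraries come from Rex1 GFPd2 cells, ES cells in which a short-lived green fluorescent protein (GFP) reports expression of Rex1, the gene Zfp42. For the colony lines, cells were kept for 2 days in differentiation medium with serum, sorted for absence of both GFP and the surface antigen SSEA1, and then kept in that medium with AICAR until day 15. AICAR, a nucleoside analogue, is phosphorylated inside cells to a mimic of AMP and so activates AMPK, a kinase that senses low energy. GFP-positive colonies were then picked and grown up with LIF plus blockers of the kinases MEK and GSK3. The undifferentiated library carries the same label for the medium, was not sorted, and had neither the differentiation step nor AICAR. The groups thus share the reporter allele and the culture label, and differ in their history. Each line stands for 1 picked colony and 1 library. The labels do not give passage numbers or say whether the 8 colonies came from 1 plate or several, so the p-values rest on the spread between these libraries, which may be technical. Beside them, 2 lines started from GFP-positive cells taken by sorting rather than picking (sorted lines) and 3 libraries of the AICAR GFP-positive cells at day 15 were used for reference levels.

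Naive ES cells correspond to the epiblast before implantation. LIF acts through STAT3, blocking MEK removes a differentiation signal and blocking GSK3 stabilises beta-catenin, so that the factors Nanog, Esrrb, Klf2, Klf4 and Tbx3 are held at high levels together with Pou5f1 and Sox2. Cells that leave this state lose those factors, and primed epiblast genes such as Fgf5 appear. Cultured ES cell lines are also known to diverge from each other in methylation enzymes, imprinted genes and karyotype during expansion and cloning.

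Reads in genes numbered 5937370 to 7370560 per library in the 9 libraries, and 14816 to 15172 genes had reads. The ribosomal RNA precursor took 0.275 to 1.11% of reads in the colony lines and 0.45% in the undifferentiated library. All 9 belong to 1 sequencing project per the file headers. Levels are given in CPM, read counts relative to the reads in genes of the library, after scaling of the libraries to each other. The 5 ES cell markers summed to 3018 to 3231 CPM in the colony lines and 3227 CPM in the undifferentiated library. In the AICAR GFP-positive cells they summed to 2293 to 3149.5 CPM, which overlaps the colony lines. The 3 primed epiblast markers summed to 1.96 to 3.92 CPM in the colony lines and 2.95 CPM in the undifferentiated library, against 113 to 147 CPM in the AICAR GFP-positive cells. The label of undifferentiated ES cells fitted the low primed markers in all 9 libraries. The ES cell sum does not set these libraries apart from the AICAR GFP-positive cells, and it includes Zfp42, the reporter by which colonies were picked.

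Few genes passed the test between the colony lines and the undifferentiated library. Of 12314 genes tested with edgeR's quasi-likelihood test, 1 was higher in the colony lines (0.00812% of genes) and 3 were lower (0.0244%) at a Benjamini-Hochberg adjusted p under 0.05. The 3 that fell were Dusp4, a phosphatase induced by ERK signalling that acts on MAP kinases, Aldh18a1, the enzyme that starts proline synthesis from glutamate, and Btg1, an antiproliferative cofactor. Together the 4 calls are 0.0325% of the genes tested. At an adjusted p under 0.1, 25 genes (0.203%) were higher and 52 (0.422%) lower, and at an unadjusted p under 0.05, 1296 genes (10.5%) were higher and 1089 (8.84%) lower. By position alone, the undifferentiated library lay outside the range of the 8 lines for 5500 genes (44.7%). For 544 of them (4.42%) the fitted change was also over 2-fold, with 195 (1.58%) higher in the lines and 349 (2.83%) lower. A gene entered the test if 1 library reached the filter, so some genes entered only through the undifferentiated library where they were high. The 195 and the 349 are therefore not set against each other. Counts were simulated for this design with each gene given its own fitted spread, and the changed genes were drawn from those above a minimum expected count. The test then recovered 64 of 100 genes changed 2-fold and 95 of 100 changed 4-fold. The simulated counts were drawn independently for each gene, without the trend with gene length described further on. These recovered shares may therefore not hold for the real libraries, and the few calls do not show that few genes differ. The number of calls depended strongly on the tool and on single lines: DESeq2 called 295 higher and 88 lower, and without colony line 9 edgeR called 55 higher and 63 lower, whereas without colony line 1, 3, 6 or 10 it called none, with 2093 to 2261 genes at an unadjusted p under 0.05. Without colony line 7 it called 4 higher and 12 lower.

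Dusp4 stood at 1.52 to 2.81 CPM in the colony lines (median 1.84) and at 9.74 CPM in the undifferentiated library. All 8 lines lay far below that library, on 11 to 19 reads each in the lines and 66 reads in the undifferentiated library. The log2 fold change was -2.25 ± 0.28 (SE, adjusted p = 0.036, edgeR). Dusp4 was 2.26 and 3.15 CPM in the sorted lines and 35.6 to 43.8 CPM in the AICAR GFP-positive cells, so the sorted lines sat with the colony lines and the cells at day 15 were high.

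Aldh18a1 stood at 11.2 to 18.8 CPM in the colony lines (median 15.2) and at 37.8 CPM in the undifferentiated library. No line came near that value. The log2 fold change was -1.34 ± 0.18 (SE, adjusted p = 0.041, edgeR), and the gene stood at 21.5 and 15.6 CPM in the sorted lines. Btg1 varied little among lines, at 19.9 to 25 CPM (median 20.9), against 40.6 CPM in the undifferentiated library. Its log2 fold change was -0.90 ± 0.13 (SE, adjusted p = 0.043, edgeR). The sorted lines had 21.3 and 18.3 CPM of Btg1, within or just under the range of the colony lines.

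The plot of genes past the threshold and listed members near it shows the 3 genes that fell with 10 others described further on.

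**Figure D1:**
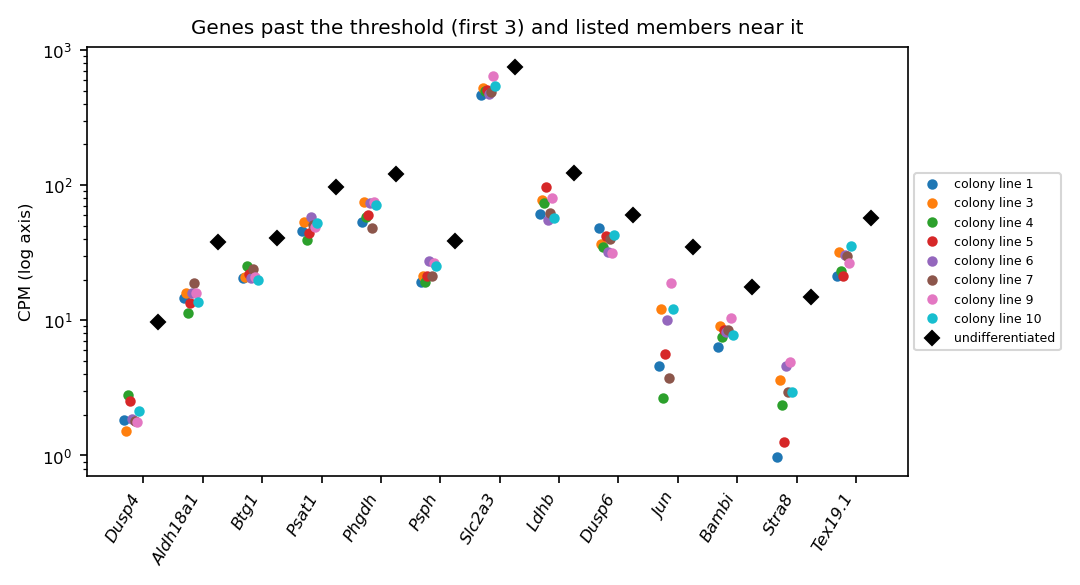
Levels (CPM, log axis) of 13 genes in the 8 colony lines (coloured circles) and in the undifferentiated library (black diamond). The first 3 genes, Dusp4, Aldh18a1 and Btg1, passed the adjusted p threshold and lie below the undifferentiated library in all 8 lines; the other 10 genes did not pass.

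The lines differed from each other in how far they lay from the undifferentiated library. Among genes with at least 100 reads in either library of a pair, 15 genes were more than 2-fold apart between line 9 and the undifferentiated library. The count was 50 for line 6, 60 for line 3, 61 for line 10, 192 for line 5, 234 for line 7, 249 for line 1 and 258 for line 4, of 7462 to 7647 genes compared. Between colony lines the 28 pairs had 0 to 119 such genes (median 53), and the 2 sorted lines lay 30 and 33 genes from the undifferentiated library. Lines 1, 4, 5 and 7 thus lay farther from the undifferentiated library than any line lay from another line, and line 9 lay nearer to it than most lines lay to each other.

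Averaged over its 8 partners, the undifferentiated library was 139.9 genes from the others, and each colony line was 35.8 to 98.8 genes from the other 8 libraries, with line 7 the highest. The undifferentiated library ranked first of 9, which gives an exact one-sided permutation p of 0.111, the smallest that 1 library against 8 allows. The difference therefore could not pass 0.05 in this design. For scale, the day-2 cells differed from the undifferentiated library by more than 2-fold in 1292 genes.

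**Figure D2:**
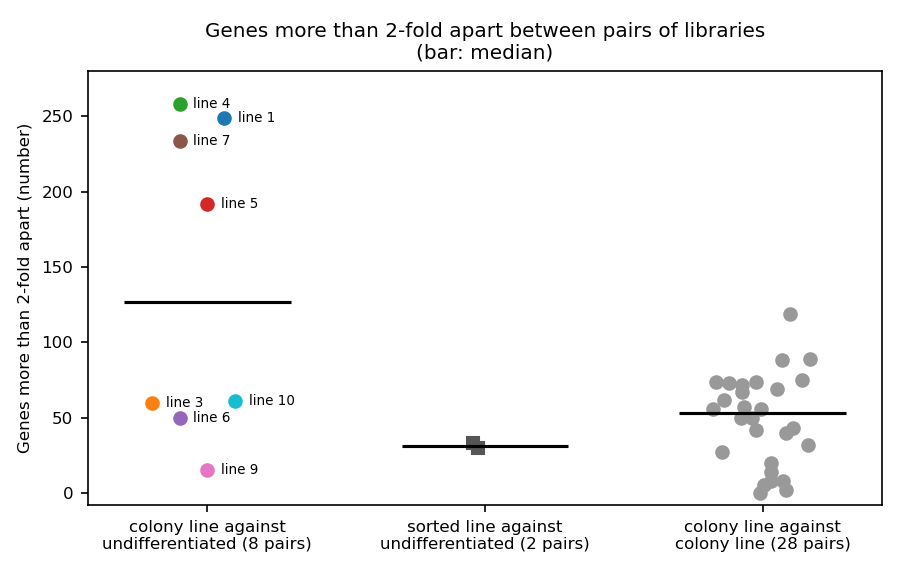
Number of genes more than 2-fold apart for pairs of libraries: each colony line against the undifferentiated library, each sorted line against it, and colony lines against each other (bars mark medians). The undifferentiated library is 15 to 258 genes from the colony lines, and the lines are 0 to 119 genes from each other.

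These distances moved together with the length of the genes. Counted length is the length over which the authors counted a gene's reads, with 3' untranslated regions left out. The genes were ordered by it and divided into 8 equal parts. The median log2 ratio of line 4 to the undifferentiated library was -0.31 in the shortest part and 0.33 in the longest. In line 9 the same medians were -0.05 and 0.09. The span between the shortest and the longest part was 0.14 in line 9, 0.20 in lines 6 and 3, 0.23 in line 10, 0.54 in line 5, 0.56 in line 7, 0.60 in line 1 and 0.65 in line 4. The 4 lines farthest from the undifferentiated library were the 4 with the steepest length trend, and in the sorted lines the span was 0.09 and 0.17. In an alternative added after the data had been seen, a smooth curve of log2 ratio on length was removed. The undifferentiated library then averaged 124.6 genes from the lines, and each colony line 32.1 to 84.6 genes from the other libraries. Lines 4, 1, 7 and 5 were then 216, 214, 192 and 177 genes from the undifferentiated library. Lines 9, 6, 3 and 10 were 15, 53, 64 and 66 genes from it, so the same 4 lines remained the farthest. With that correction 4 genes were called higher and 10 lower. Dusp4 and Aldh18a1 passed, Btg1 missed at an adjusted p of 0.062, and Psat1, Dnmt3l and Cldn4 were among those added.

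**Figure D3:**
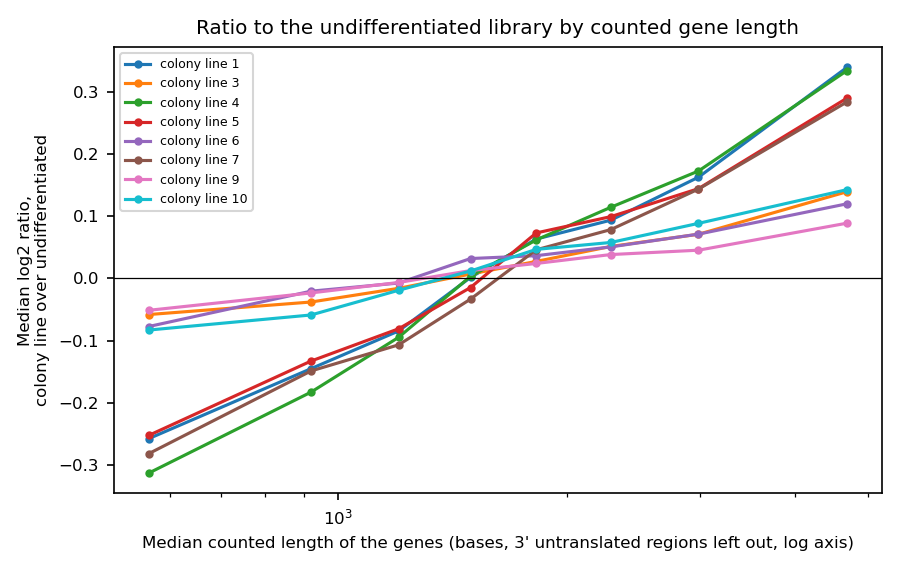
Median log2 ratio of each colony line to the undifferentiated library (vertical axis) for 8 equal parts of the genes ordered by counted length (horizontal axis, log scale). All 8 curves climb from the shortest to the longest genes, by 0.14 in line 9 and by 0.65 in line 4.

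None of the 22 naive genes tested passed at adjusted p under 0.05. At an unadjusted p under 0.05, 6 of the 22 (27.3%) were lower, against 8.84% of all genes, and 3 (13.6%) were higher, against 10.5%. In all 8 lines, 5 of the 22 lay above the undifferentiated library and 7 lay below, against 22% and 22.6% of all genes tested. The median log2 fold change of the list was -0.10, against -0.01 over all genes tested. With length corrected, 5 of the 22 lay above and 9 below, against 19.7% and 23.5% of all genes. The list median was then 0.03, against -0.02 over all genes. Zfp42, the reporter gene, stood at 347 to 611 CPM in the colony lines (median 543) and at 437 CPM in the undifferentiated library. Line 7 was the lowest and lay under the undifferentiated value, while the other 7 lay above it at 529 CPM or more. The log2 fold change was 0.29 ± 0.21 (SE, adjusted p = 0.46, edgeR).

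Nanog, a homeodomain factor of the naive network, stood at 438 to 550 CPM in the colony lines (median 488) and at 548 CPM in the undifferentiated library, so that line 9 reached that value. Esrrb, an orphan nuclear receptor of the same network, stood at 331 to 391 CPM in the colony lines (median 378) and at 329 CPM in the undifferentiated library. Neither passed the test, with adjusted p of 0.45 for Nanog and 0.44 for Esrrb (edgeR). Pou5f1, the factor on which pluripotency depends, stood at 1407 to 1563 CPM in the colony lines (median 1461) and at 1585 CPM in the undifferentiated library. Sox2, its DNA-binding partner, stood at 259 to 347 CPM in the colony lines (median 297) and at 328 CPM in the undifferentiated library. The log2 fold changes were -0.10 ± 0.09 for Pou5f1 and -0.13 ± 0.13 for Sox2 (SE, adjusted p = 0.54 and 0.60, edgeR).

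Klf2, a Kruppel-like factor that sustains the naive state under MEK inhibition, stood at 155 to 297 CPM in the colony lines (median 263) and at 264 CPM in the undifferentiated library. Tbx3, a T-box factor of the LIF-responsive network, stood at 267 to 402 CPM in the colony lines (median 287) and at 358 CPM in the undifferentiated library. Line 7 stood apart in both, as the lowest of the lines for Klf2 and the highest for Tbx3. Klf4, a target of LIF and STAT3, stood at 120 to 175 CPM in the colony lines (median 142) and at 228 CPM in the undifferentiated library. All 8 lines were below that library, and the sorted lines had 149 and 143 CPM. Klf4 had a log2 fold change of -0.66 ± 0.14 (SE, adjusted p = 0.096, edgeR), which missed the threshold.

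Dppa3 (Stella), a maternal factor of germ cells and the early embryo that protects methylated DNA, had the most negative fold change of the naive list. It stood at 0.49 to 1.44 CPM in the colony lines (median 0.77) and at 5.17 CPM in the undifferentiated library. All lines were lower, on 3 to 10 reads each against 35 reads in the undifferentiated library, and the sorted lines had 2.91 and 2.72 CPM. Dppa3 entered the test only through the undifferentiated library. The log2 fold change was -2.49 ± 0.43 (SE, adjusted p = 0.074, edgeR). Dppa5a, an RNA-binding protein of pluripotent cells, stood at 753 to 1027 CPM in the colony lines (median 837) and at 1208 CPM in the undifferentiated library. Fgf4, an autocrine growth factor that drives exit from the naive state through ERK, stood at 40.9 to 49.7 CPM in the colony lines (median 45.3) and at 30.0 CPM in the undifferentiated library. The groups did not overlap in either gene, and the adjusted p was 0.13 for Dppa5a and 0.11 for Fgf4 (edgeR).

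**Figure D4:**
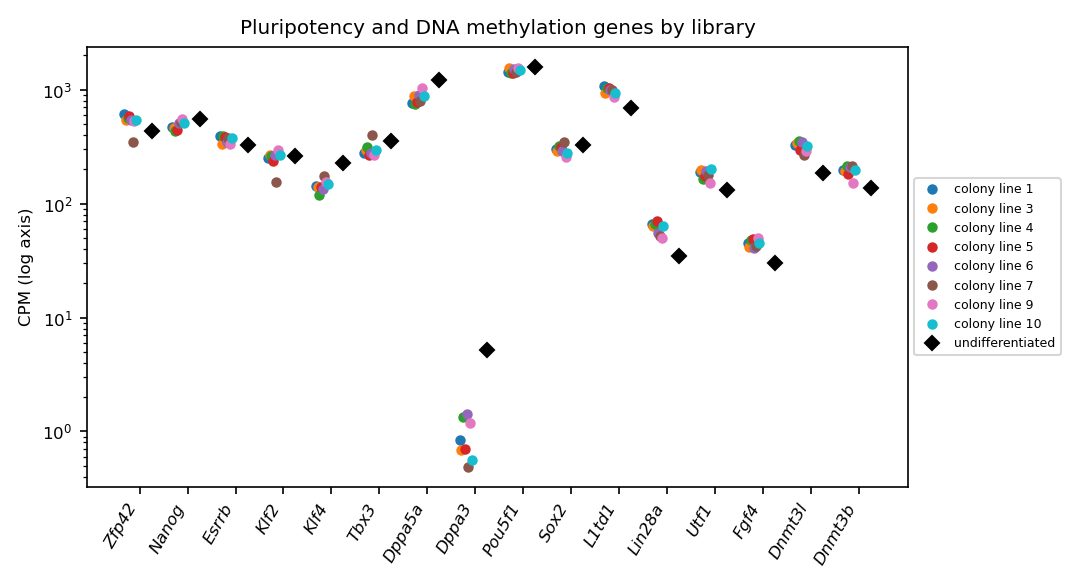
Levels (CPM, log axis) of 16 pluripotency and DNA methylation genes in the 8 colony lines (coloured circles) and the undifferentiated library (black diamond). Zfp42, Nanog, Klf2, Tbx3 and Sox2 overlap with the undifferentiated value, whereas all 8 lines lie below it for Klf4, Dppa5a, Dppa3 and Pou5f1 and above it for L1td1, Lin28a, Utf1, Fgf4, Dnmt3l, Dnmt3b and Esrrb; none of these genes passed the adjusted p threshold.

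Of 18 general pluripotency genes tested, none passed, 7 lay above the undifferentiated library in all 8 lines and 2 below, against 22% and 22.6% of all genes. The median log2 fold change was 0.24, and 6 of the 18 were higher at an unadjusted p under 0.05, against 10.5% of all genes, with none lower. L1td1, an RNA-binding protein of pluripotent cells, stood at 860 to 1068 CPM in the colony lines (median 994) and at 694 CPM in the undifferentiated library. Lin28a, the RNA-binding protein that blocks let-7 maturation, stood at 49.7 to 70.4 CPM in the colony lines (median 63.2) and at 34.4 CPM in the undifferentiated library. In both genes every line was higher, with log2 fold changes of 0.50 ± 0.11 for L1td1 and 0.82 ± 0.19 for Lin28a (SE, adjusted p = 0.10 for each, edgeR). Utf1, a chromatin factor of pluripotent cells, had 152 to 200 CPM in the colony lines and 133 CPM in the undifferentiated library (adjusted p = 0.16, edgeR). Rif1, which guards replication timing and telomeres, had 587 to 979 CPM in the colony lines and 445 CPM in the undifferentiated library (adjusted p = 0.16, edgeR). Rif1 has a counted length of 7324 bases, and its log2 fold change went from 0.82 to 0.54 with the length correction.

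Fgf5, the marker of primed epiblast, had 0 to 8 reads per colony line and 1 read in the undifferentiated library, too few to enter the test, against 10.9 to 12.2 CPM in the AICAR GFP-positive cells. Its highest colony value was 1.31 CPM in line 7. Brachyury (T), the primitive streak factor, stood at 1.8 to 3.5 CPM in the colony lines (median 2.81) and at 1.33 CPM in the undifferentiated library (adjusted p = 0.29, edgeR). Of 15 formative and primed epiblast genes tested out of 21 listed, none passed, 1 lay above in all lines and 6 below, where the shares over all genes were 22% and 22.6%. Among the 6 were Sox3 and Zic2, factors of early neural and epiblast cells. Sox3 had 0.718 to 2.54 CPM in the colony lines and 5.46 CPM in the undifferentiated library (adjusted p = 0.12, edgeR). Zic2 had 21.7 to 37.2 CPM in the colony lines and 46.3 CPM in the undifferentiated library (adjusted p = 0.17, edgeR).

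Of 11 DNA methylation genes tested, 7 lay above the undifferentiated library in all 8 lines, against 22% of all genes, 3 lay below, against 22.6%, and none passed at adjusted p under 0.05. The list holds long genes, with a median counted length of 2773 bases against 1613 bases for all genes. After the length correction 5 of the 11 lay above and 2 below, against 19.7% and 23.5% of all genes. Dnmt3l, the catalytically inactive cofactor of de novo methylation, stood at 269 to 352 CPM in the colony lines (median 326) and at 184 CPM in the undifferentiated library. The lowest line, line 7, was still well above the undifferentiated value, and the sorted lines had 319 and 284 CPM. Dnmt3l had a log2 fold change of 0.79 ± 0.14 (SE, adjusted p = 0.074, edgeR), and it passed after the length correction at an adjusted p of 0.047. Dnmt3b, a de novo methyltransferase, had 153 to 214 CPM in the colony lines and 137 CPM in the undifferentiated library (adjusted p = 0.15, edgeR). Tet1, which oxidises methylated cytosine, had 235 to 471 CPM in the colony lines and 189 CPM in the undifferentiated library (adjusted p = 0.17, edgeR).

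Of 18 Polycomb genes tested, 9 lay above the undifferentiated library in all 8 lines and 2 below, against 22% and 22.6% of all genes, with a median log2 fold change of 0.22 and none past the threshold. Kdm2b, the CpG island protein that recruits a variant of Polycomb complex 1, stood at 189 to 244 CPM in the colony lines (median 231) and at 149 CPM in the undifferentiated library (adjusted p = 0.096, edgeR). Eed, the subunit of complex 2 that reads trimethylated histone H3 lysine, stood at 356 to 412 CPM in the colony lines (median 389) and at 301 CPM in the undifferentiated library (adjusted p = 0.14, edgeR). The range of the lines did not reach the undifferentiated value in either gene.

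Read by signalling pathway, the MEK-ERK response list held more members below the undifferentiated library than above it, with Dusp4 the 1 member past the threshold of 17 tested, against 0.0244% of all genes called lower. In all 8 lines, 8 members lay below the undifferentiated library and 2 above, against 22.6% and 22% of all genes. Dusp6, a phosphatase that ERK induces and that inactivates it, had 31.3 to 48.1 CPM in the colony lines (median 38.3) and 59.9 CPM in the undifferentiated library (adjusted p = 0.14, edgeR). Jun, an AP-1 subunit, varied widely among lines, from 2.66 CPM in line 4 to 18.9 CPM in line 9, and stood at 34.5 CPM in the undifferentiated library (adjusted p = 0.14, edgeR). Spry4, a feedback inhibitor of receptor tyrosine kinases, went the other way, with 21.0 to 45.5 CPM in the colony lines and 14.8 CPM in the undifferentiated library (adjusted p = 0.19, edgeR).

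Of 13 tested genes of BMP signalling and the Id family, none passed, 7 lay below the undifferentiated library in all lines and 4 above, against 22.6% and 22% of all genes. The median log2 fold change of the list was -0.72, the lowest of the 37 lists. Bambi, a pseudoreceptor that dampens TGF-beta family signals, had 6.30 to 10.3 CPM in the colony lines (median 8.29) and 17.6 CPM in the undifferentiated library, a log2 fold change of -1.09 ± 0.21 (SE, adjusted p = 0.085, edgeR). Smad7, an inhibitory Smad, had 67.2 to 122 CPM in the colony lines and 135 CPM in the undifferentiated library, with 7 of the lines at 82.7 CPM or less and line 7 at 122 CPM (adjusted p = 0.15, edgeR). Id4, counted together with an overlapping transcript as A330033J07Rik+Id4, had 0.989 to 3.87 CPM in the colony lines and 7.38 CPM in the undifferentiated library. Id2, a dominant-negative partner of bHLH factors, had 0.424 to 1.01 CPM in the colony lines and 2.21 CPM in the undifferentiated library. Id2 rested on 3 to 7 reads per line and 15 reads in the undifferentiated library. It entered the test only through that library, so its place below the library is partly set by the filter. Neither Id gene passed, at an adjusted p of 0.15 for A330033J07Rik+Id4 and 0.16 for Id2 (edgeR).

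Of 15 Nodal pathway genes tested, none passed, 6 lay below in all lines and 1 above, against 22.6% and 22% of all genes. Lefty1 and Lefty2 are secreted inhibitors of Nodal and also its targets. Both also belong to the formative and primed epiblast list and count among its members below in all lines. Lefty1 had 54.1 to 120 CPM in the colony lines and 146 CPM in the undifferentiated library, and Lefty2 had 159 to 251 CPM in the colony lines and 288 CPM in the undifferentiated library. Both missed the threshold, at an adjusted p of 0.20 for Lefty1 and 0.21 for Lefty2 (edgeR).

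In the Wnt response list, which reads beta-catenin activity, 4 of 14 tested lay below in all lines, 2 lay above and none passed, where 22.6% and 22% of all genes did so, so the count below is near the background. Sp5, a direct Wnt target, had 7.03 to 17.8 CPM in the colony lines and 23.6 CPM in the undifferentiated library (adjusted p = 0.14, edgeR). Cdx1, a caudal homeobox target, had 19.5 to 34.3 CPM in the colony lines and 43.2 CPM in the undifferentiated library (adjusted p = 0.16, edgeR), and Notum, a secreted Wnt inhibitor, had 31.9 to 44.7 CPM in the colony lines and 56.8 CPM in the undifferentiated library (adjusted p = 0.14, edgeR). Of 12 targets of LIF and STAT3 tested, 6 lay above in all lines and 2 below, against 22% and 22.6% of all genes, and none passed. Socs3, a feedback inhibitor of the LIF receptor, had 37.1 to 52.2 CPM in the colony lines and 28.6 CPM in the undifferentiated library (adjusted p = 0.14, edgeR). Lifr, the receptor subunit itself, had 33.0 to 64.2 CPM in the colony lines and 24.2 CPM in the undifferentiated library (adjusted p = 0.16, edgeR), and Pim1, a STAT3-induced kinase, had 60.7 to 92.3 CPM in the colony lines and 114 CPM in the undifferentiated library (adjusted p = 0.17, edgeR).

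Of 16 enzymes of serine, threonine and proline metabolism tested, 9 lay below the undifferentiated library in all 8 lines, against 22.6% of all genes, 1 lay above, against 22%, and 6 overlapped. Aldh18a1 was the member that fell, and the list median log2 fold change was -0.16. The 3 enzymes of serine synthesis were all below. Phgdh, the first enzyme of the pathway, had 48.4 to 75.5 CPM in the colony lines (median 66.0) and 121 CPM in the undifferentiated library. Psat1, its aminotransferase, had 39.2 to 57.7 CPM in the colony lines (median 49.7) and 95.9 CPM in the undifferentiated library. Psph, the final phosphatase, had 19.2 to 27.3 CPM in the colony lines (median 21.3) and 38.5 CPM in the undifferentiated library. No line reached the undifferentiated value in any of them, and the sorted lines lay between, at 85.4 and 86.7 CPM for Phgdh, 76.2 and 70.3 CPM for Psat1, and 30.5 and 28.1 CPM for Psph. Psat1 had a log2 fold change of -0.97 ± 0.15 (SE, adjusted p = 0.062, edgeR), and it passed after the length correction at an adjusted p of 0.026. Phgdh and Psph missed the threshold, at an adjusted p of 0.096 for Phgdh and 0.11 for Psph (edgeR).

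Chac1 and Trib3, stress-response genes induced by ATF4, the factor that also drives serine synthesis enzymes, were low on both sides. Chac1 had 0.56 to 1.18 CPM in the colony lines and 2.07 CPM in the undifferentiated library. It rested on 4 to 8 reads per line and 14 reads in the undifferentiated library, through which alone it entered the test. Trib3 had 1.92 to 5.89 CPM in the colony lines and 8.41 CPM in the undifferentiated library. Neither passed (adjusted p = 0.19 for Chac1 and 0.22 for Trib3, edgeR). Of 18 stress response genes, 4 lay below in all lines, a share at the 22.6% of all genes, and none lay above. The metallothioneins Mt1 and Mt2, which bind zinc and copper, were among the lower ones, with Mt1 at 33.2 to 67.2 CPM in the colony lines and 85.5 CPM in the undifferentiated library, and Mt2 at 46.6 to 88.9 CPM in the colony lines and 106 CPM in the undifferentiated library (adjusted p = 0.17 for each, edgeR).

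Of 23 glycolysis genes tested, 8 lay below in all lines and 1 above, against 22.6% and 22% of all genes, none passed, and the median log2 fold change was -0.54. Slc2a3, a high-affinity glucose transporter, had 464 to 642 CPM in the colony lines (median 499) and 753 CPM in the undifferentiated library, with line 9 nearest to the undifferentiated value (adjusted p = 0.12, edgeR). Ldhb, a lactate dehydrogenase subunit, had 54.9 to 96.4 CPM in the colony lines and 123 CPM in the undifferentiated library (adjusted p = 0.14, edgeR). Aldoc, an aldolase, had 5.89 to 12.8 CPM in the colony lines other than line 9, 21.3 CPM in line 9 and 22.4 CPM in the undifferentiated library (adjusted p = 0.22, edgeR). Slc2a1, the widespread glucose transporter, had 119 to 199 CPM in the colony lines and 216 CPM in the undifferentiated library (adjusted p = 0.20, edgeR).

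Of 23 sterol and fatty acid synthesis genes tested, 10 lay below in all lines and 3 above, against 22.6% and 22% of all genes, and none passed. With length corrected, 13 lay below and 2 above, against 23.5% and 19.7% of all genes. At an unadjusted p under 0.05 (edgeR), 10 were then lower, against 5 before the correction. Insig1, the sterol sensor that retains SREBP in the endoplasmic reticulum, had 26.0 to 45.4 CPM in the colony lines and 51.8 CPM in the undifferentiated library (adjusted p = 0.17, edgeR). Fdps, which makes farnesyl diphosphate, had 94.3 to 166 CPM in the colony lines and 184 CPM in the undifferentiated library (adjusted p = 0.19, edgeR), and Nsdhl, a sterol dehydrogenase, had 23.2 to 35.5 CPM in the colony lines and 41.2 CPM in the undifferentiated library (adjusted p = 0.16, edgeR).

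All 41 ribosomal protein genes tested lay below the undifferentiated library in all 8 colony lines, against 22.6% of all genes tested, and none passed the threshold. Their log2 fold changes ran from -0.62 to -0.16, with a median of -0.33, and 27 of the 41 had an unadjusted p under 0.05. Rps20, a protein of the small subunit, had 880 to 1156 CPM in the colony lines (median 1038) and 1412 CPM in the undifferentiated library (adjusted p = 0.13, edgeR). Rpl19, of the large subunit, had 1309 to 1703 CPM in the colony lines (median 1491) and 1968 CPM in the undifferentiated library (adjusted p = 0.17, edgeR). Of 30 oxidative phosphorylation genes, 25 lay below in all lines, against 22.6% of all genes, none lay above and none passed, with a median log2 fold change of -0.28. Cox6a1, a subunit of cytochrome c oxidase, had 74.2 to 93.1 CPM in the colony lines and 114 CPM in the undifferentiated library, and Atp5o, a subunit of ATP synthase, had 211 to 299.9 CPM in the colony lines and 361 CPM in the undifferentiated library (adjusted p = 0.12 and 0.16, edgeR).

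These lists hold short genes, with a median counted length of 633 bases for ribosomal proteins and 745 bases for oxidative phosphorylation, against 1613 bases for all genes tested. After the length correction 39 of the 41 ribosomal protein genes and 19 of the 30 oxidative phosphorylation genes still lay below in all lines, against 23.5% of all genes, and the medians were -0.19 and -0.17. Of 20 genes of the G2 and M phases, 9 lay above in all lines and 2 below, against 22% and 22.6% of all genes, and none passed. Top2a, the mitotic topoisomerase, had 971 to 1163 CPM in the colony lines and 884 CPM in the undifferentiated library, and Kif11, a spindle kinesin, had 225 to 314 CPM in the colony lines and 205 CPM in the undifferentiated library (adjusted p = 0.21 and 0.23, edgeR). The count of 9 dropped to 5 of 20 after the length correction, against 19.7% of all genes.

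**Figure D5:**
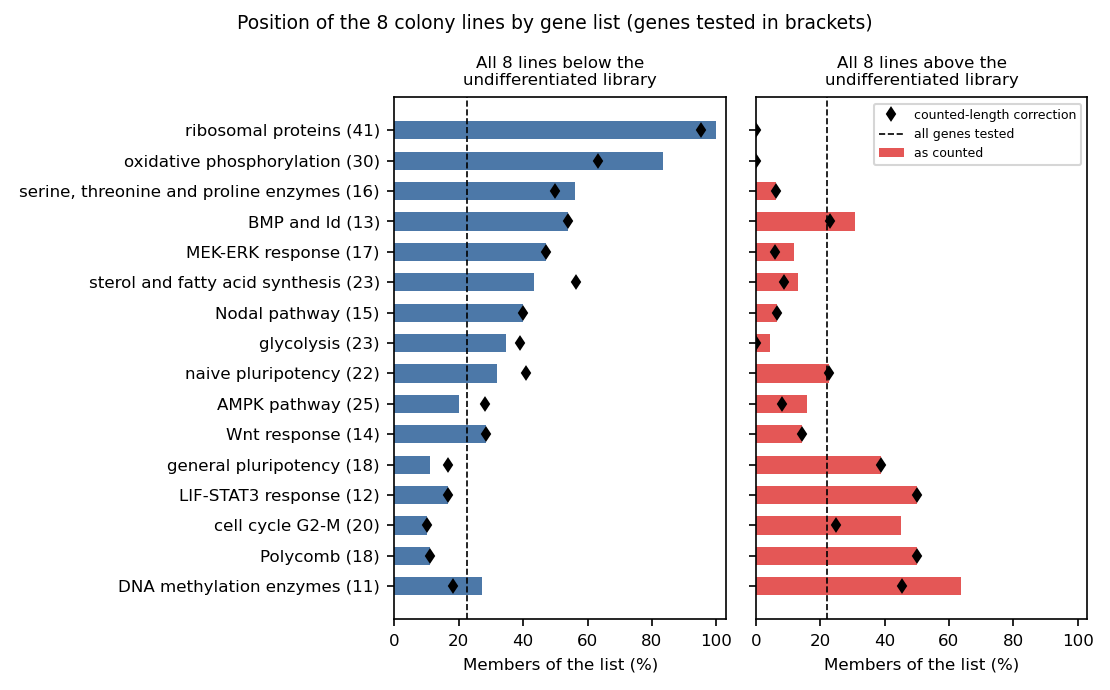
Share of the tested members of 16 gene lists that lie below (left) or above (right) the undifferentiated library in all 8 colony lines; bars are the values as counted, diamonds those after the counted-length correction, and dashed lines the share over all genes tested. Ribosomal protein genes lie below in 41 of 41 as counted and in 39 of 41 after the correction, and 9 of 18 Polycomb genes lie above by both.

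AMPK is the kinase that AICAR activates. Of 25 genes of its pathway tested, none passed, 4 lay above in all lines and 5 below, against 22% and 22.6% of all genes, and the median log2 fold change was 0.06. After the length correction 2 lay above and 7 below, and 6 of the 25 (24%) were lower at an unadjusted p under 0.05, against 9.92% of all genes, whereas 1 was lower before it. Prkaa1, a catalytic subunit of AMPK, had 30.3 to 35.8 CPM in the colony lines and 27.3 CPM in the undifferentiated library, and Prkag2, a regulatory subunit, had 5.39 to 8.17 CPM in the colony lines and 10.5 CPM in the undifferentiated library (adjusted p = 0.20 for each, edgeR). Of 19 purine synthesis genes, the pathway of which AICAR monophosphate is an intermediate, 3 lay above in all lines and 5 below, near the 22% and 22.6% of all genes, and none passed. Mthfd2, a mitochondrial folate enzyme that feeds it, had 22.4 to 35.6 CPM in the colony lines and 42.9 CPM in the undifferentiated library (adjusted p = 0.19, edgeR).

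Several smaller groups held genes whose range did not include the undifferentiated value, as was so for 44.7% of all genes tested. Stra8, the retinoic acid target of meiotic entry, had 0.979 to 4.88 CPM in the colony lines (median 2.96), 7.42 and 8.73 CPM in the sorted lines and 14.9 CPM in the undifferentiated library, a log2 fold change of -2.33 ± 0.46 (SE, adjusted p = 0.089, edgeR). Tex19.1, a germline and placental gene that restrains retrotransposons, had 21.3 to 35.3 CPM in the colony lines and 57.1 CPM in the undifferentiated library (adjusted p = 0.096, edgeR). Both belong to the germline list, in which 4 of 16 tested lay below in all lines and 3 above, near the shares over all genes. Cldn4, a tight junction protein of the epithelial list, had 10.9 to 20.3 CPM in the colony lines and 37.5 CPM in the undifferentiated library (adjusted p = 0.074, edgeR). Cdkn2a, which encodes the inhibitors p16 and p19Arf, had 1.96 to 6.32 CPM in the colony lines and 10.9 CPM in the undifferentiated library, and Cdk6, a kinase that p16 inhibits, had 14.5 to 17.3 CPM in the colony lines and 10.6 CPM in the undifferentiated library (adjusted p = 0.13 and 0.15, edgeR). Sesn1, a p53 target, had 28.1 to 36.1 CPM in the colony lines and 23.5 CPM in the undifferentiated library (adjusted p = 0.16, edgeR). It belongs to the p53 target list, in which 4 of 19 tested lay below in all lines and 3 above, against 22.6% and 22% of all genes. Ddx58 (RIG-I), a sensor of viral RNA, had 72.0 to 118 CPM in the colony lines and 54.0 CPM in the undifferentiated library (adjusted p = 0.13, edgeR). Of 7 epithelial genes tested, 1 lay below in all lines and none above. Of 16 G1 cyclins and CDK inhibitors, 5 lay below and 2 above, and of 6 interferon response genes 3 lay above and none below. Over all genes the shares were 22.6% below and 22% above.

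Imprinted genes, which are expressed from 1 parental allele and are prone to change in ES culture, were read in 2 lists. In the Dlk1-Dio3 cluster 4 of 6 genes lay above in all lines, against 22% of all genes, none lay below and none passed, with a median log2 fold change of 0.73. After the length correction 3 of the 6 lay above, against 19.7% of all genes, with a median of 0.61. The maternally expressed noncoding RNA Meg3, counted with its microRNAs as Meg3+Mir1906-1+Mir1906-2+Mir770, had 195, 364, 192, 263, 328, 212, 199.7 and 365 CPM in colony lines 1, 3, 4, 5, 6, 7, 9 and 10, and 146 CPM in the undifferentiated library (adjusted p = 0.23, edgeR). Rian, the next noncoding RNA of the cluster, had 245, 502, 243, 319, 504, 286, 265 and 495 CPM in the same order of lines and 237 CPM in the undifferentiated library (adjusted p = 0.44, edgeR). Lines 3, 6 and 10 were highest for both, and no line was below the undifferentiated library for either RNA. Dlk1, the paternally expressed gene of the cluster, had 0.56 to 1.58 CPM in the colony lines and 1.18 CPM in the undifferentiated library. Of 26 other imprinted genes tested, 5 lay above in all lines and 5 below, near the shares over all genes. Among them Impact, a translational regulator, had 126 to 178 CPM in the colony lines and 115 CPM in the undifferentiated library, and Ube3a, a ubiquitin ligase counted as A230073K19Rik+Ube3a, had 71.1 to 117 CPM in the colony lines and 63.6 CPM in the undifferentiated library (adjusted p = 0.17 for each, edgeR). Slc22a18, an organic cation transporter, had 0.287 to 1.12 CPM in the colony lines and 1.92 CPM in the undifferentiated library (adjusted p = 0.16, edgeR). It rested on 2 to 8 reads per line and 13 reads in the undifferentiated library, through which alone it entered the test.

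The genes with the widest range among the 8 lines fell into 2 kinds, genes of the Y chromosome and genes of collagen and smooth muscle. In line 7 the Y-linked genes were at or near 0: Ddx3y, an RNA helicase, and Uty, a histone demethylase homologue, had 0 reads, and Eif2s3y and Uba1y, a translation factor subunit and a ubiquitin-activating enzyme, had 0.49 and 0.163 CPM. The other 7 lines had 66.1 to 113 CPM of Ddx3y, 28.1 to 62.9 CPM of Uty, 63.7 to 118 CPM of Eif2s3y and 23.4 to 53.7 CPM of Uba1y. The undifferentiated library had 33.5 CPM of Ddx3y, 15.9 CPM of Uty, 54.3 CPM of Eif2s3y and 26.9 CPM of Uba1y, under all 7 of those lines for the first 3 genes and within their range for Uba1y. None of the 4 passed the test, with an adjusted p of 0.57 for Ddx3y.

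Line 7 also stood apart on chromosome 8. Over 542 genes of that chromosome, the median log2 ratio to the undifferentiated library was -0.43 in line 7 and 0.07 to 0.12 in the other 7 lines. On each of the other autosomes and the X chromosome, the medians of all 8 lines lay between -0.10 and 0.12. Zfp42 and Klf2 are both on chromosome 8, and line 7 was the lowest of the lines in both. The part of the chromosome in those values was not tested. Dusp4 lies on chromosome 8 as well, and its 1.8 CPM in line 7 was within the range of the other lines. Genes were assigned to chromosomes by their RefSeq entry.

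Lines 4 and 5 had the highest levels of the smooth muscle genes Acta2 and Tagln and of the collagen genes Col4a1 and Col4a2, and line 4 that of Col1a1. Acta2, smooth muscle actin, had 9.65, 1.8, 53.4, 86.1, 1.29, 2.29, 1.18 and 1.55 CPM in colony lines 1, 3, 4, 5, 6, 7, 9 and 10, and 0.59 CPM in the undifferentiated library. Tagln, an actin-binding protein of smooth muscle, had 24.9 CPM in line 4, 48.3 CPM in line 5, 0.83 to 4.34 CPM in the other 6 lines and 0.59 CPM in the undifferentiated library. Col4a1 and Col4a2, the chains of basement membrane collagen, had 658 and 331 CPM in line 5, and 25.1 and 13.9 CPM in the undifferentiated library. Col1a1, the chain of fibrillar collagen typical of fibroblasts, had 73.1 CPM in line 4, 0.565 to 8.67 CPM in the other 7 lines and 3.25 CPM in the undifferentiated library. At day 15 without AICAR, Col1a1 stood at 14218 CPM.

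The 7 fibroblast markers summed to 122 CPM in line 4, 2.40 to 18.6 CPM in the other 7 lines and 10.0 CPM in the undifferentiated library. The 6 primitive endoderm markers summed to 25.9 CPM in line 5, 2.15 to 10.1 CPM in the other 7 lines and 4.43 CPM in the undifferentiated library. In a bulk library, a few cells with much RNA of such a gene and many cells with little cannot be told apart. The ES cell markers summed to 3132 CPM in both lines, within the range of the others. The part of these markers in the distances of lines 4 and 5 from the undifferentiated library was not tested.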

How the data were processed

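RNA was sequenced from stranded mRNA libraries. The submitters' processing notes name bcl2fastq, CASAVA 1.8.2, Trimmomatic 0.3.3, TopHat2 2.0.14, Bowtie2 2.2.5 and the mouse genome build mm9. The deposited tables give whole-number read counts per gene, made by the authors on a RefSeq gene table with 3' untranslated regions left out, per the file headers. They also give RPKM, which the authors computed from those counts, per the file headers. Whether counting used the strand is not given in the sources used here, and overlapping genes are joined under 974 double names, so that their shares cannot be told apart.

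The 22756 entries of each table were kept. Colony lines and the undifferentiated library were compared with edgeR 4.0.16 (R 4.3.3) and TMM scaling. The tool's expression filter kept genes with 10 reads, scaled to the median library size, in at least 1 library and 15 in all. A tested gene can thus be barely detected on 1 side of the comparison. The quasi-likelihood test was used, with Benjamini-Hochberg adjustment over 12314 genes. Only these 9 libraries entered the fit, so the spread comes from the 8 lines and the lone library is assumed to vary like them. Each SE given is derived from the test, as the absolute log2 fold change divided by the square root of the F statistic. CPM of other libraries were put on the same scale. Depth was 5937370 to 7370560 reads in genes. The fit was tested on simulated data. The chi-square per degree of freedom of counts was 2.05 to 16.7 between lines and 5.66 to 27.5 between lines and the undifferentiated library, where 1 is counting noise alone, so no libraries were merged.

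A gene was said to lie above or below in all lines where the undifferentiated CPM was outside the range of the 8 lines. Counted length was taken from the ratio of counts to RPKM. The length correction removed a loess curve (span 0.75, genes of at least 5 CPM) of each library's log2 ratio on log length.

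The members and the 37 gene lists were chosen with earlier results of these data known. Some genes belong to several lists and are counted in each. Named genes were those past the threshold (up to 15 in each direction), 2 to 4 members with the smallest adjusted p of each list described, the 8 with the widest range among lines at a mean of at least 10 CPM, and Zfp42, Pou5f1, Nanog, Sox2, Klf4, Klf2, Esrrb, Tbx3, Fgf5, T and Dlk1. Col4a1 was chosen after its values were seen. Some genes that this rule takes, the 1 called higher among them, are not reported here. Alternatives were DESeq2 1.42.0, RLE scaling, no filter, a minimum count of 50, sharing the spread with the sorted lines or all libraries, limma 3.58.1 on log2(RPKM + 1), leaving out each line, other read minimums and folds for distances, and the length correction.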

Additional observations from a re-analysis of the deposited data

Results flagged for a closer look

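Among 88 genes named in the text and the medians of 21 chromosomes, 15 values of 1 colony line lay far from those of the other 7. For a single value chance gives this about 1 in 20 times, but some of these genes were named for their wide range among lines or after their values were seen, so the number of such values is not set against chance. Line 7 held 9 of the 15 values. The median log2 ratio to the undifferentiated library was -0.43 in line 7 on chromosome 8, against 0.07 to 0.12 in the other 7 lines. On the Y chromosome it was -4.08 in line 7, against 0.23 to 1.73 in the others. Ddx3y had 0 CPM in line 7 and at least 66.1 CPM in the others, and Eif2s3y had 0.49 CPM in line 7 and at least 63.7 CPM in the others. Zfp42 had 347 CPM in line 7 and 529 to 611 CPM in the others, and Klf2 had 155 CPM in line 7 and 239 to 297 CPM in the others. Line 7 was high for Tbx3 at 402 CPM, against 267 to 313 CPM in the others, for Smad7 at 122 CPM, against 67.2 to 82.7 CPM, and for Fgf5 at 1.31 CPM, against 0 to 0.574 CPM.

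Line 4 had 73.1 CPM of Col1a1, against 0.565 to 8.67 CPM in the other lines. Line 5 had 658 CPM of Col4a1, against 19.5 to 184 CPM, and 331 CPM of Col4a2, against 5.60 to 106 CPM. Line 9 had 642 CPM of Slc2a3, against 464 to 540 CPM, and 21.3 CPM of Aldoc, against 5.89 to 12.8 CPM. Line 1 had 1.12 CPM of Slc22a18, against 0.287 to 0.654 CPM, on at most 8 reads in any line.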

How the results depend on the processing

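Counts of genes past the threshold (1 higher and 3 lower) moved by over 1.5 times under most settings, and the cause was not tested. DESeq2 called 295 higher and 88 lower, RLE scaling 0 and 2, sharing the spread with the sorted lines 9 and 26, sharing it with all libraries 0 and 1, limma on log2(RPKM + 1) 2 and 6, and the length correction 4 and 10. At an unadjusted p under 0.05, 2395 genes passed with RLE scaling and 2183 with all libraries. Without 1 line the counts ran from 0 to 55 higher and from 0 to 63 lower. Over 16 alternatives the adjusted p ran from 8.8e-06 to 0.13 for Aldh18a1 and 0.00025 to 0.23 for Btg1, and over 15 from 0.0010 to 0.12 for Dusp4. Their directions held in each. Of 1367 gene values under alternatives, 3 changed sign, none of them past the threshold. These were Klf2 without line 7 (0.0025), Col1a1 without line 4 (-0.065) and Uba1y with limma (-0.12). Over all alternatives Klf2 ran from -0.11 to 0.0025 and Col1a1 from -0.065 to 2.05. The length correction left 5 of 20 G2 and M genes above in all lines, against 9 as counted, and 5326 genes outside the range of the lines, against 5500. The undifferentiated library ranked as the farthest of 9 at minimums of 50 and 200 reads, at 1.5-fold and after the length correction. With 1 undifferentiated library its own spread is not measured, and genes under about 10 reads rest on few counts. No paired analysis was possible because the labels link the 1 undifferentiated library to no single line.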
